A study of Rattus norvegicus with 119 samples.

Results

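The transcription factor Nrf2 and 9 genes of its antioxidant and glutathione programme were followed in the hippocampus of rats fed lead during development. The 10 genes were taken as every probe set whose only gene symbol in the array annotation was Nfe2l2 (the gene of Nrf2), Keap1, Nqo1, Hmox1, Gclc, Gclm, Txnrd1, Srxn1, Slc7a11 or Gsr. Each gene was measured by exactly 1 probe set, so 10 of 29214 probe sets on the array were used, and 15310 probe sets of the array carry exactly 1 symbol. The levels of all 10 were read in every animal, 1 Affymetrix Rat Gene 1.0 ST array per animal, as log2 intensities.

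The animals were male and female rats of 3 strains, Fischer (40 animals), Long Evans (40) and Sprague Dawley (39). Controls ate control chow throughout, and exposed animals ate the same chow with 250 or 750 ppm lead acetate in 1 of 2 windows. In the perinatal window the dams ate lead chow from 10 days before breeding until weaning, after which the pups ate control chow. In the postnatal window lead chow was given from birth to postnatal day 45 and control chow after that, and all hippocampi were collected on postnatal day 55. This gives 30 groups by strain, sex, window and dose, of 4 animals each, but for 3 control males in Sprague Dawley rats. All tissue was therefore taken after a spell on lead-free chow. The labels give no litters, so the animals were treated as independent, and p-values measure the spread between these animals. In whole hippocampus, fewer cells of a type and less RNA per cell cannot be told apart.

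Nrf2 is held in the cytoplasm by Keap1, an adaptor that hands it to a Cul3 ubiquitin ligase for degradation. Electrophiles and oxidants modify Keap1, Nrf2 then accumulates, pairs with small Maf proteins in the nucleus and binds antioxidant response elements in its target genes. Gclc and Gclm are the catalytic and modifier subunits of glutamate-cysteine ligase, which makes the rate-limiting step of glutathione synthesis, and Slc7a11 is the cystine importer that feeds it. Gsr reduces oxidised glutathione, Txnrd1 reduces thioredoxin, Srxn1 repairs over-oxidised peroxiredoxins, Nqo1 reduces quinones and Hmox1 degrades haem. In brain, astrocytes carry much of the Nrf2 response and supply glutathione precursors to neurons.

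The core of the antioxidant response element, TGACNNNGC, was searched on both strands of RefSeq promoter windows (assembly GRCr8). Each window runs from 250 bases before to 50 bases after its own listed start, which need not be the outer end of the gene. The windows of Nfe2l2, Txnrd1 and Slc7a11 lie wholly inside the annotated gene and that of Gclc mostly so. Of 33469 windows in the table, 4038 (12.1%) hold it. Among the 8 listed genes with a window, 3 hold it, and Hmox1 and Gsr have no entry. The 3 matches are shown because they are the only ones in these windows, 5′ to 3′ on the gene's strand with the core in capitals; a core on the opposite strand reads as its reverse complement.
Gclm promoter, chr2:213031948-213031986, plus strand, core at position -172 from the start: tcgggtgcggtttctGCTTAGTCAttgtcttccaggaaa
Txnrd1 promoter, chr7:22755959-22755997, minus strand, core at position -78 from the start in 1 of 2 windows: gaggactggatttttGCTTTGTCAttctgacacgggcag
Nfe2l2 promoter, chr3:81028950-81028976, minus strand, core at position 38 from the start: gctccgactagccatTGACGCCGCctc
A match describes these letters only, and the windows of Keap1, Nqo1, Gclc, Srxn1 and Slc7a11 hold none within this length.

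Array medians ran from 7.36 to 7.57 and no 2 arrays were identical. On 8 arrays the X-linked gene Eif2s3 and the mean of Ddx3x and Pbdc1 lay nearer to the other sex: Long Evans male control 4 and female controls 1 and 3, Sprague Dawley female control 2, male perinatal 750 ppm 4, male postnatal 750 ppm 2, and female postnatal 750 ppm 2 and 4. Within each group the sample labels carry a run of numbers, whose meaning the labels do not give. The lower 2 and the upper 2 numbers were taken as 2 sets per strain. Of the 3 Sprague Dawley control males 1 was taken as lower and 2 as upper, so this strain has 19 and 20 animals in the sets. Each group has its own run, so what a run may carry cannot be told apart from lead, dose, window, sex or strain. The 2 sets lie within the runs and do not separate these. The neuron marker mean lay between 11.80 and 12.03 in every animal, while the choroid plexus marker mean ran from 6.91 to 10.4, a wide spread between dissections.

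The spread of the 30 group means differed from gene to gene. For Nfe2l2 the group means ran from 8.82 in Long Evans perinatal 750 ppm males to 9.34 in Sprague Dawley postnatal 250 ppm males, a range of 0.52, the widest of the 10, beside a median within-group SD of 0.14. Of the 29 steps between neighbouring group means of Nfe2l2, 1 exceeded the smaller of the neighbours' SDs. Steps between 30 ranked means are small in any case, so this count says nothing on the order by strain. Long Evans groups made up 9 of the 10 lowest means. For its inhibitor Keap1 the means ran from 9.10 in Sprague Dawley perinatal 750 ppm males to 9.52 in Long Evans postnatal 750 ppm males. Of its 10 highest means 7 were of Long Evans groups, and of its 10 lowest 6 were of Sprague Dawley groups.

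Among the glutathione genes, Slc7a11 had the next widest range, from 11.3 in Long Evans perinatal 750 ppm males to 11.8 in Fischer control males, with a median within-group SD of 0.10. Gclc ran from 9.66 to 10.02 and its 10 Long Evans groups were its 10 lowest. Gclm ran from 9.58 to 9.90, narrow beside its median within-group SD of 0.19. Gsr ran from 9.23 in Long Evans control males to 9.49 in Fischer postnatal 250 ppm females.

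Of the redox enzymes outside glutathione synthesis, Nqo1 group means ran from 7.81 to 8.23, those of Txnrd1 from 7.86 to 8.15 and those of Srxn1 from 7.25 to 7.47. The Hmox1 means ran from 6.43 to 6.66, and Hmox1 was the only 1 of the 10 whose mean level was under the 40th percentile of all probe sets.

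**Figure D1:**
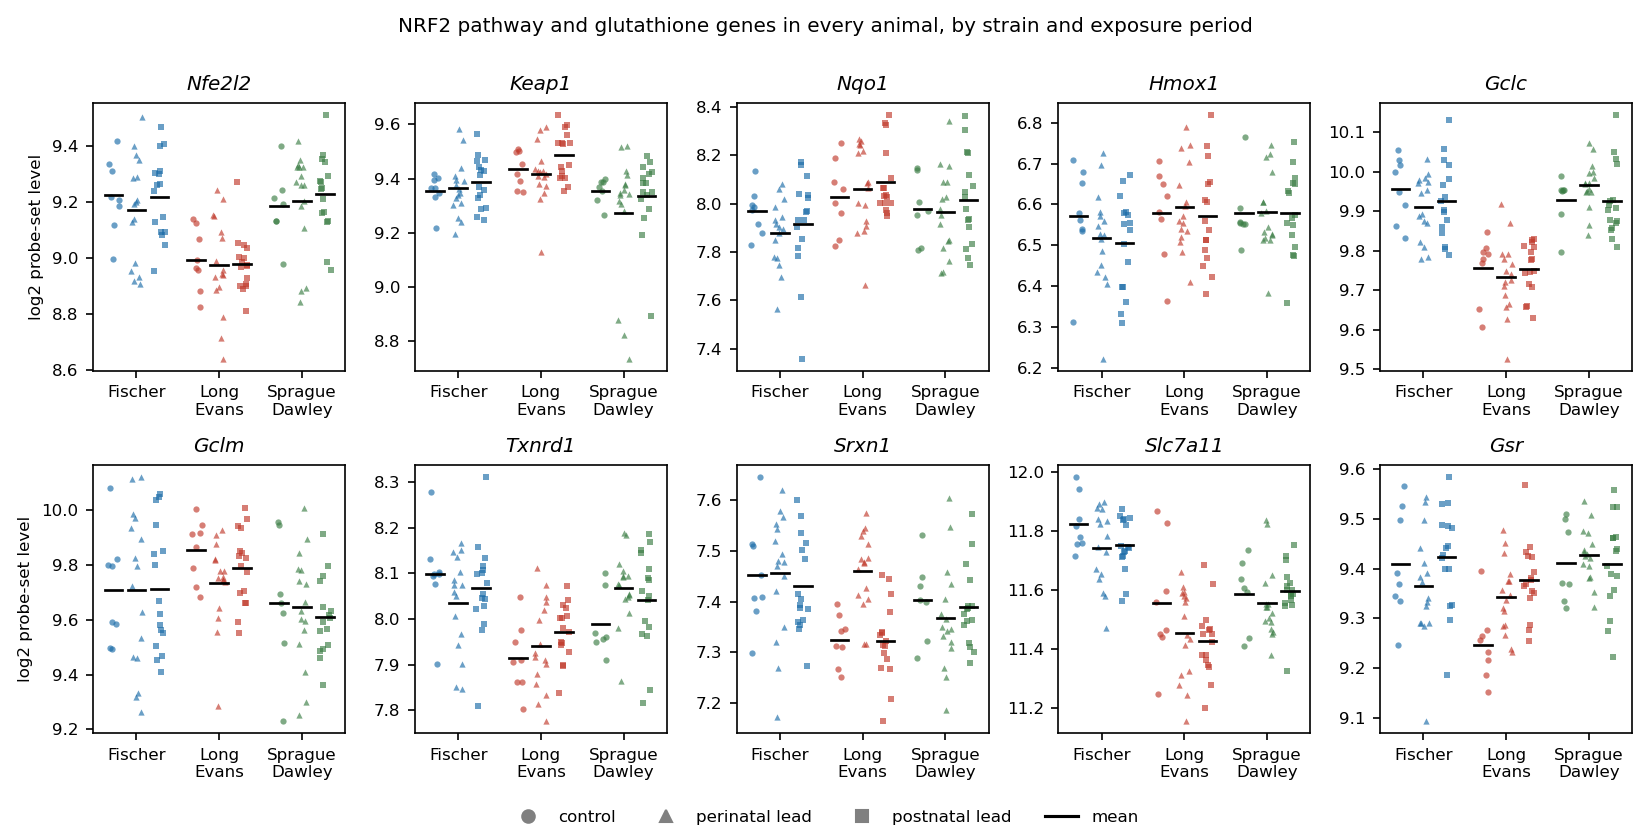
Log2 probe-set level (vertical axis, own scale per gene) of the 10 genes in each animal, by strain; circles are controls, triangles perinatal and squares postnatal lead, and lines are means. Gclc, Nfe2l2 and Slc7a11 lie lower in Long Evans than in Fischer rats, while within a strain the controls and exposed animals overlap.

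The central comparison of the design set each exposed group against the controls of its strain and sex, 24 contrasts in all; the 4 exposed groups of a strain and sex share their controls. None of the 240 gene-by-group differences passed an adjusted p of 0.05 in limma with Benjamini-Hochberg adjustment over all 29214 probe sets. Over all probe sets 0.0175% were called in these contrasts, and 17 of the 240 had an unadjusted p under 0.05. The differences ran from -0.25 (Keap1, Sprague Dawley perinatal 750 ppm males) to 0.23 (Gclm, Sprague Dawley perinatal 250 ppm females) on the log2 scale, where 1 is a doubling. The 95% confidence intervals of single groups reached from -0.51 to 0.50, so with 4 animals a group a change within those bounds could not be seen for every gene. The smallest adjusted p, 0.321, was that of Gsr in Long Evans postnatal 750 ppm males, 0.17 ± 0.054 (SE) above controls.

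**Figure D2:**
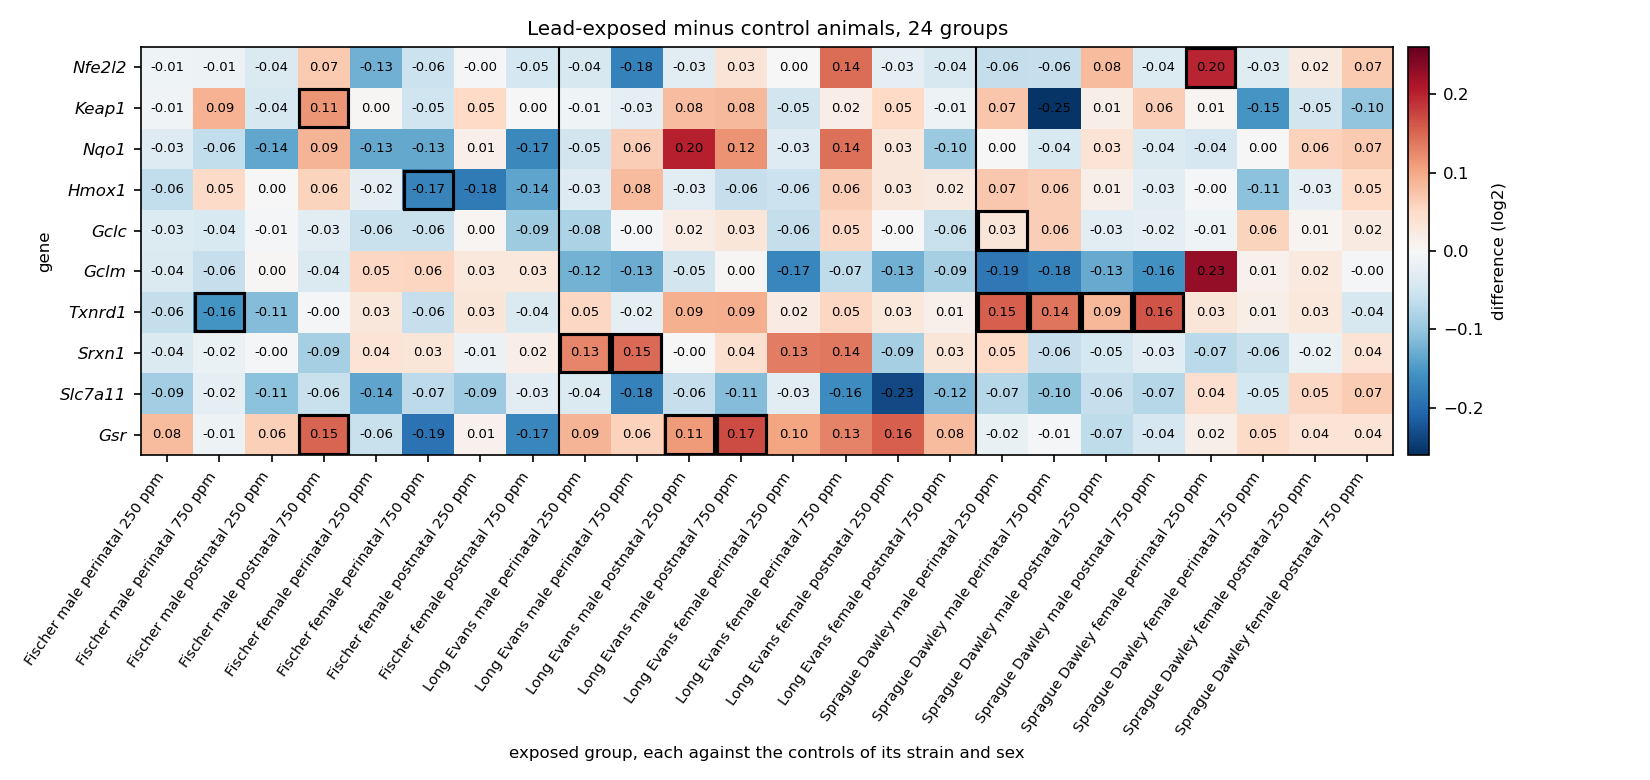
Log2 difference between each of 24 exposed groups (columns) and the controls of the same strain and sex for the 10 genes (rows); red is higher and blue lower in exposed animals, and boxes mark groups whose values do not overlap with the controls. Boxes stand in 14 of 240 cells, 5 of them Txnrd1, and the values run from -0.25 to 0.23.

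In 14 of the 240 comparisons (5.83%) the exposed and control animals did not overlap, against 2.80% over all probe sets. Txnrd1 accounted for 5, Gsr for 3 and Srxn1 for 2, and Nfe2l2, Keap1, Hmox1 and Gclc for 1 each. Txnrd1, the cytosolic thioredoxin reductase, read 7.91, 7.96 and 7.95 in the 3 Sprague Dawley control males. All 16 exposed Sprague Dawley males were above these 3 controls, with the lowest at 7.97. The 4 group differences were 0.15 ± 0.072 (SE) and 0.14 ± 0.072 for perinatal 250 and 750 ppm and 0.086 ± 0.072 and 0.16 ± 0.072 for postnatal 250 and 750 ppm, with limma adjusted p of 0.998 or more. They share 3 control animals, so they are not 4 separate results, and 2 of the exposed arrays are among those at odds with the labelled sex. In females of the strain the Txnrd1 differences ran from -0.041 to 0.032, and in Fischer perinatal 750 ppm males Txnrd1 went the other way, 0.16 below controls without overlap.

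Averaged over the 8 exposed groups of a strain, no gene passed the test either: 0 of 30 mean differences were called by limma, against 0.0764% of all probe sets (0 in Fischer, 0.212% in Long Evans, 0.0171% in Sprague Dawley rats), and 2 had an unadjusted p under 0.05. The median over the 10 genes was -0.034 in Fischer, 0.0100 in Long Evans and 0.0025 in Sprague Dawley rats, beside -0.0043, 0.0010 and -0.0037 over all probe sets. All 95% confidence intervals lay between -0.23 and 0.22. For the master regulator Nfe2l2 the mean differences were -0.028, -0.017 and 0.023 in Fischer, Long Evans and Sprague Dawley rats, with adjusted p of 0.985 or more.

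Gsr had the smallest p-value of the 30. In Long Evans rats Gsr was above the controls in 8 of 8 exposed groups, and the mean difference was 0.11 (95% confidence interval 0.052 to 0.17), with an unadjusted p of 0.000653 and a limma adjusted p of 0.119. The 8 controls had a lowest, median and highest level of 9.15, 9.24 and 9.40, and the 32 exposed animals of 9.23, 9.36 and 9.57. The ranges overlap, but in postnatal 750 ppm males the levels were 9.34, 9.44, 9.43 and 9.38 against 9.15, 9.22, 9.28 and 9.27 in control males, with no overlap. Leaving out the arrays that went against their sex label, 3 of which are Long Evans controls, gave 0.090 and an adjusted p of 0.543. Within the label-number sets the mean difference was 0.15 in the lower and 0.074 in the upper set. In Fischer and Sprague Dawley rats Gsr differed by -0.016 and 0.0005. The Long Evans effect exceeded the Fischer one by 0.13 (limma adjusted p 0.662) and the Sprague Dawley one by 0.11 (adjusted p 1); 0 of 30 strain differences of the mean lead effect were called, against 0.0730% of all probe sets.

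Slc7a11 went the other way. It was below the controls in 8 of 8 exposed groups in Fischer rats (mean difference -0.076) and in 8 of 8 in Long Evans rats (-0.12), and in 5 of 8 in Sprague Dawley rats (-0.024). None passed (limma adjusted p 1, 0.682 and 0.999). In Long Evans rats the difference was 0.010 among the lower and -0.24 among the upper label numbers.

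The mean differences of Gclm, Gclc and Txnrd1 were not called in any strain either. Gclm was below controls in 7 of 8 Long Evans groups (mean difference -0.093, 95% confidence interval -0.21 to 0.023), and Gclc in 7 of 8 Fischer groups (-0.039, interval -0.12 to 0.041). Txnrd1 was above controls in 7 of 8 groups in Long Evans (0.042) and in 7 of 8 in Sprague Dawley rats (0.072). Groups of a strain and sex share controls, so these counts of groups are not independent.

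**Figure D3:**
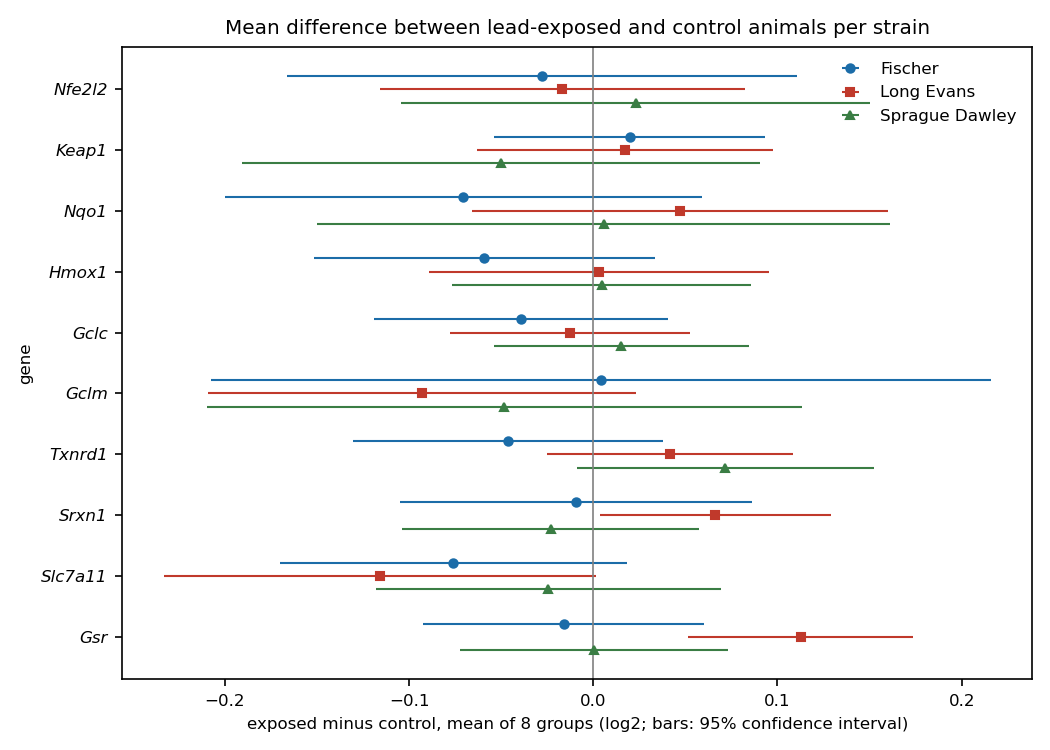
Mean log2 difference between exposed and control animals over the 8 exposed groups of each strain (horizontal axis), with 95% confidence intervals, for the 10 genes. Intervals that leave out 0 are those of Gsr (0.11) and Srxn1 (0.066) in Long Evans rats, and neither passed the adjusted test.

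Doses and windows were then compared among the exposed animals of each strain, and the lead effect of females with that of males, each against its own controls, 90 tests in all. Srxn1, the sulfiredoxin that restores over-oxidised peroxiredoxins, was the 1 gene called: in Long Evans rats it was lower after postnatal than after perinatal lead by 0.14 on the log2 scale (-0.14 ± 0.028 SE, limma adjusted p 0.0339). For this contrast 0.0650% of all probe sets were called, 0.0445% in the lower direction, and over the whole family 0.0270%. The 16 perinatal animals had a lowest, median and highest level of 7.32, 7.48 and 7.58, the 16 postnatal animals of 7.16, 7.32 and 7.45, and the 8 controls of 7.25, 7.33 and 7.39. Of the perinatal animals 14 of 16 were above every control, whereas 3 of 16 postnatal animals were above and 2 below all controls.

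Both sexes and both doses had the same order of windows. Perinatal group means of Srxn1 were 7.44 and 7.46 in males at 250 and 750 ppm and 7.47 and 7.47 in females, and postnatal means were 7.31 and 7.36 in males and 7.25 and 7.37 in females. Against Long Evans controls the perinatal mean difference was 0.14 (95% confidence interval 0.067 to 0.20, limma adjusted p 0.0837; 0 of 60 such differences were called, against 0.0576% of all probe sets) and the postnatal one was -0.0033. With dim probe sets removed the perinatal difference was called, at an adjusted p of 0.0493. In the other 7 settings of the fit it was not called, with limma adjusted p up to 0.208. Over all 8 settings the difference lay between 0.11 and 0.15. It was also not called in 38 of 40 fits that left out 1 animal, with adjusted p up to 0.183. Within the label-number sets the postnatal minus perinatal difference was -0.14 in the lower and -0.14 in the upper set.

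Several settings end the Srxn1 call. With 1 fit of all strains the limma adjusted p was 0.0545, after a further quantile normalization 0.0833 (difference -0.12), and with the choroid plexus marker mean as a covariate 0.300 (difference -0.11). That mean was lower in the perinatal animals (mean 8.06, range 7.09 to 9.88) than in the postnatal ones (9.10, range 7.10 to 10.4): all 14 of its probe sets were higher after postnatal lead, by a median of 1.16, and 0 were called. Over all animals, after each strain and label-number set was centred, Srxn1 correlated with it at r = -0.36. The call was kept with the label-number set as a block (adjusted p 0.0422) and without the arrays that went against their sex label (0.0458). It was lost in 18 of 40 fits that left out 1 animal, with adjusted p from 0.00992 to 0.0763 and differences from -0.15 to -0.13. The 18 are female perinatal 250 ppm 2 and 3, female perinatal 750 ppm 3 and 4, female postnatal 250 ppm 2 and 3, female postnatal 750 ppm 2 and 4, male perinatal 250 ppm 3 and 4, male perinatal 750 ppm 1, 3 and 4, male postnatal 250 ppm 1, 2 and 4, and male postnatal 750 ppm 1 and 3.

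**Figure D4:**
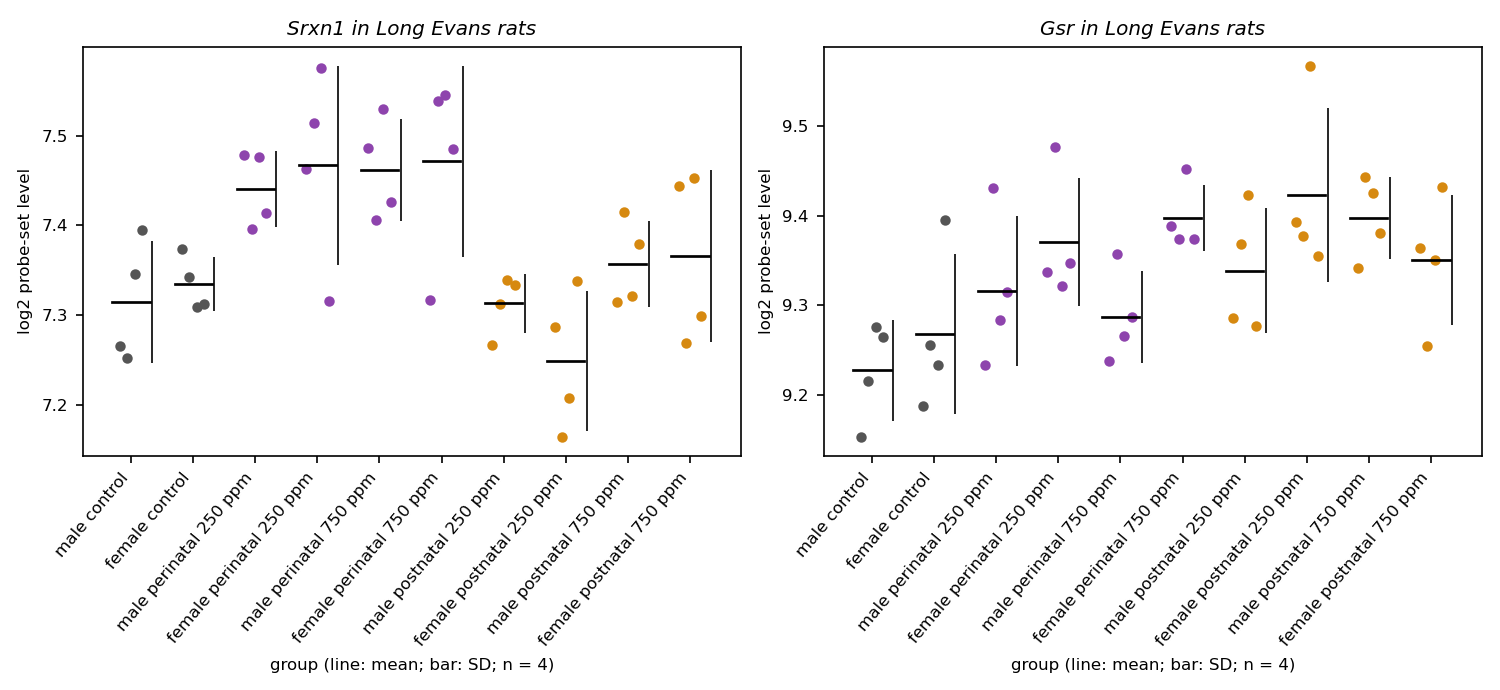
Log2 levels of Srxn1 (left) and Gsr (right) in each Long Evans animal by group (grey controls, purple perinatal, orange postnatal lead; lines are means and bars SD, n = 4). The 4 perinatal groups of Srxn1 have means from 7.44 to 7.47, above controls and postnatal groups, and Gsr is lowest in the controls.

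In the other strains the same Srxn1 contrast was -0.025 (Fischer) and 0.020 (Sprague Dawley). The difference between strains was itself tested: Long Evans minus Sprague Dawley was -0.16 (adjusted p 0.351) and Long Evans minus Fischer -0.11 (adjusted p 0.735). None of the 30 strain differences of the window contrast was called (0.0388% of all probe sets were), so a Srxn1 pattern particular to Long Evans rats was not shown. For the other 9 genes no dose, window or sex difference of the lead effect was called; the smallest unadjusted p among them, 0.0227, was that of Gsr between doses in Fischer rats (-0.080 from 250 to 750 ppm, adjusted p 0.810). None of 30 sex differences among controls was called (0.00114% of all probe sets), with 2 unadjusted p under 0.05. Long Evans male control 4 and female controls 1 and 3 and Sprague Dawley female control 2 went against their sex label. This limits the sex contrasts of the controls and of the lead effect in both strains. Without the arrays against their sex label 0 of 30 sex differences among controls were called too, from fewer animals.

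Strain differences were called where lead effects were not. In control animals 9 of 30 strain differences of the 10 genes were called by limma, all of them lower in the strain named first, while 20.0% of all probe sets were called, so strain differences were common on this array. Between Long Evans and Fischer controls 6 of 10 genes were lower and 0 higher, where 25.1% of all probe sets were called and 13.4% were lower and 11.7% higher. Gclc was lower by 0.20 (-0.20 ± 0.042 SE, adjusted p 0.000148), with 9.61, 9.79 and 9.85 as lowest, median and highest of 8 Long Evans controls and 9.83, 9.97 and 10.06 of 8 Fischer controls. Slc7a11 was lower by 0.27 (-0.27 ± 0.063, adjusted p 0.000699), at 11.25, 11.51 and 11.87 against 11.72, 11.80 and 11.98. For Gclc the strains overlap only in the highest Long Evans and the lowest Fischer animal, while for Slc7a11 the 2 highest Long Evans controls lie among the Fischer ones.

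Txnrd1 was lower in Long Evans than in Fischer controls (-0.18 ± 0.046, adjusted p 0.00155), as were Gsr (-0.16 ± 0.041, adjusted p 0.00180), Nfe2l2 (-0.23 ± 0.076, adjusted p 0.0170) and Srxn1 (-0.13 ± 0.048, adjusted p 0.0419). Keap1, Nqo1, Hmox1 and Gclm differed by 0.079, 0.060, 0.0086 and 0.15 and were not called. Between Long Evans and Sprague Dawley controls, which share the Long Evans animals, Gclc (-0.17 ± 0.044, adjusted p 0.00185) and Gsr (-0.17 ± 0.043, adjusted p 0.00186) were lower, with 24.5% of all probe sets called and 12.4% lower. Between Sprague Dawley and Fischer controls Slc7a11 was lower (-0.22 ± 0.066, adjusted p 0.0151), with 10.5% called and 6.13% lower.

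The exposed animals of each strain, 32 against 32, gave a second set of values from other rats. There 17 of 30 differences were called by limma, 11 lower and 6 higher in the strain named first. Between Long Evans and Fischer rats 4 genes were lower and 3 higher, where 57.7% of all probe sets were called (31.2% lower, 26.4% higher). Gclc (-0.17), Slc7a11 (-0.31), Nfe2l2 (-0.22) and Txnrd1 (-0.095) were lower, as in the controls. Nqo1 (0.18, adjusted p 0.000131), Keap1 (0.077, adjusted p 0.0271) and Hmox1 (0.071, adjusted p 0.0204) were higher, and none of these 3 was called in the controls. Gsr (-0.033, adjusted p 0.163) and Srxn1 (-0.052, adjusted p 0.0577) were not called. For Gsr the control difference and the mean lead effect in Long Evans rats rest on the same 8 controls. Between Sprague Dawley and Fischer rats 3 genes were called (35.2% of all probe sets), and between Long Evans and Sprague Dawley rats 5 were lower and 2 higher (57.8%, 31.4% lower and 26.4% higher). Of the latter, 1 was Keap1, the inhibitor, higher in Long Evans rats by 0.15 (adjusted p 2.71e-05). The mean of exposed Sprague Dawley rats includes 4 animals between 8.74 and 8.89, and the medians, 9.43 and 9.35, lie closer together than the means, 9.45 and 9.31.

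Each group has a run of label numbers of its own, so what a run may carry cannot be told apart from the strain, nor from lead, dose or window. Within the lower and upper label-number sets the Long Evans minus Fischer control difference was -0.079 and -0.32 for Gclc, -0.42 and -0.12 for Slc7a11, -0.18 and -0.28 for Nfe2l2 and -0.26 and -0.064 for Gsr. For Txnrd1 the difference was -0.18 and -0.19, and for Srxn1 -0.22 and -0.034. The sign was shared in each of these genes, but the size was alike only for Txnrd1. The labels do not say that a set means the same in both strains, so these values give no check on the strain difference. Astrocyte markers moved with the strains: their mean was 10.87 in Long Evans controls (10.80 to 10.94) and 10.98 in Fischer controls (10.90 to 11.06), and 5 of 11 markers were called lower and 0 higher. Blood vessel markers had means of 8.88 (8.74 to 8.94) and 9.02 (8.92 to 9.14), with 6 of 12 called lower and 1 higher. With the astrocyte mean as a covariate Nfe2l2 was no longer called (-0.045, adjusted p 0.651), nor was Gclc against Sprague Dawley rats (-0.095, adjusted p 0.0741). Gclm was then called higher in Long Evans than in Fischer (0.44) and Sprague Dawley rats (0.49). Without the covariate these differences were 0.15 and 0.18 and not called. Srxn1 was then called lower in Long Evans than in Sprague Dawley rats (-0.14). In Fischer rats the astrocyte mean parted by label-number set without overlap, and Gclm and Nfe2l2 also differed between these sets. There the covariate cannot be told apart from the set. Nfe2l2 also lost its call without the arrays against their sex label (-0.20, adjusted p 0.0798), without Fischer female control 3 (0.0564) or without Long Evans female control 1 (0.0528). Srxn1 lost its call without those arrays (0.0542), with array weights (0.0524) and without any 1 of Fischer female controls 1, 2 and 3, Fischer male control 2, Long Evans female controls 2, 3 and 4 and Long Evans male controls 1 and 2 (adjusted p 0.0512 to 0.136). Nfe2l2 between Long Evans and Sprague Dawley controls was -0.20 with an adjusted p of 0.0517 and was called with the label-number set as a block (0.0125), after a further quantile normalization (0.0199), with the choroid plexus covariate (0.0277), with array weights (0.0281) and with dim probe sets removed (0.0406). In exposed animals it was -0.24 (adjusted p 5.88e-08).

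Several of the genes also differed between the label-number sets. With the 10 group means in the fit, 10 of 30 differences between upper and lower numbers were called by limma, against 26.6% of all probe sets. Fischer rats gave 7 (60.9% of all probe sets were called, 18.6% higher and 42.3% lower), Sprague Dawley rats 3 (18.9%, 10.2% higher and 8.71% lower) and Long Evans rats 0 (0.0993%). In Fischer rats Gclm was higher among the upper numbers by 0.42 ± 0.041 (SE, adjusted p 1.76e-10). The 20 lower-number animals read 9.26, 9.50 and 9.72 as lowest, median and highest and the 20 upper-number animals 9.67, 9.92 and 10.1, so the sets overlapped only at the edge. Nfe2l2 (0.25 ± 0.033, adjusted p 1.20e-07), Nqo1 (0.17 ± 0.041, adjusted p 0.000672) and Gclc (0.14 ± 0.019, adjusted p 2.45e-07) were higher too.

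Slc7a11 (-0.15), Srxn1 (-0.13) and Gsr (-0.095) were lower among the upper Fischer numbers, and the Srxn1 difference fell to -0.042 (adjusted p 0.227) after a further quantile normalization. In the same Fischer sets the astrocyte marker mean was 10.89 (10.83 to 10.92) in the lower and 11.03 (10.96 to 11.09) in the upper set, and the microglia mean 8.83 (8.78 to 8.90) and 8.68 (8.62 to 8.77), without overlap. The meninges mean was 9.14 (8.61 to 9.60) and 8.81 (8.40 to 9.21), with overlap; their part in the gene differences was not tested. In Sprague Dawley rats Nqo1 was again higher among the upper numbers (0.17 ± 0.051, adjusted p 0.0147), while Gclm was lower (-0.20 ± 0.050, adjusted p 0.00351), opposite to Fischer rats. Gsr was higher by 0.070 ± 0.024 (adjusted p 0.0419). The Gsr call was lost in 21 of 39 fits that left out 1 Sprague Dawley animal (adjusted p up to 0.0763): male controls 1, 2 and 3, male perinatal 250 ppm 4, male perinatal 750 ppm 1 and 3, male postnatal 250 ppm 1, 3 and 4, male postnatal 750 ppm 1 and 4, female controls 1 and 3, female perinatal 250 ppm 1 and 4, female postnatal 250 ppm 2 and 4, and female postnatal 750 ppm 1, 2, 3 and 4. Exposed and control groups hold both sets, and fitting the set as a block changed no lead call of the 10 genes.

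**Figure D5:**
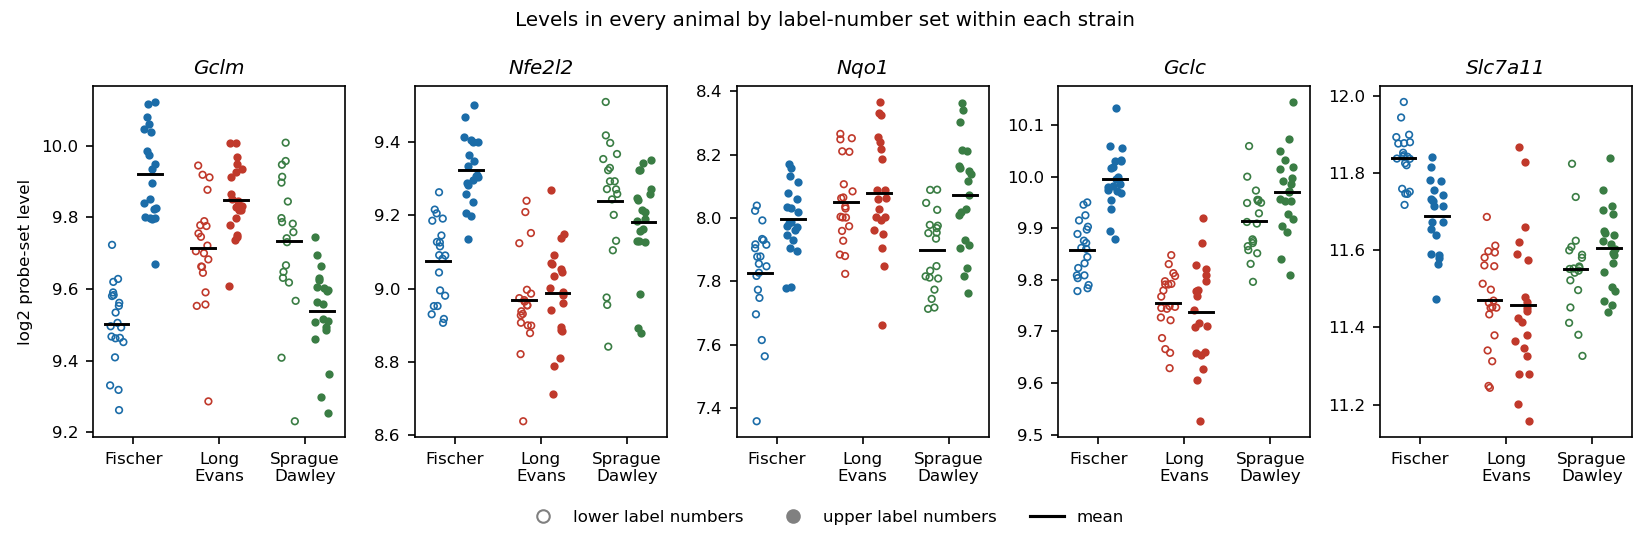
Log2 level of Gclm, Nfe2l2, Nqo1, Gclc and Slc7a11 in every animal by strain, with open circles for the lower and filled circles for the upper label numbers and lines for means. In Fischer rats the 2 sets of Gclm centre on 9.50 and 9.92, and in Long Evans rats they overlap.

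The other genes of the pathway were read the same way. Of 13 measured regulators and partners of Nrf2, 29 other Nrf2 targets (40 probe sets), 24 other glutathione genes (25 probe sets) and 15 other antioxidant enzymes, 0 were called in the mean lead effect of any strain. The list medians lay between -0.027 and 0.022, beside medians from -0.0043 to 0.0010 over all probe sets. The smallest unadjusted p of the other targets was that of Gstm1, a glutathione transferase, in Sprague Dawley rats (-0.14, unadjusted p 0.00154, limma adjusted p 0.999). Msrb1, a methionine sulfoxide reductase, was at 0.13 in the same strain (adjusted p 0.999), and the glutamate and cysteine carrier Slc1a1 at -0.11 in Long Evans rats (adjusted p 0.375).

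Between strains these genes differed in both directions. From Fischer to Long Evans controls, 2 regulators were higher and 2 lower, 3 probe sets of other targets were higher and 7 lower, 3 of other glutathione genes higher and 8 lower, and 3 other antioxidant enzymes higher and 2 lower. Over all probe sets 25.1% were called in this contrast, the same share as 10 of 40 target probe sets. Cul3, the scaffold of the ligase that degrades Nrf2, was lower (-0.31, adjusted p 1.57e-05), as were Slc3a2, the partner chain of Slc7a11 (-0.19, adjusted p 0.000841), and Gss, glutathione synthetase (-0.18, adjusted p 0.0177). Catalase, Cat, was higher (0.34, adjusted p 9.14e-07) and so was the plasma glutathione peroxidase Gpx3 (0.40, adjusted p 0.000182). Between Long Evans and Sprague Dawley controls the counts, higher and lower, were 3 and 3, 6 and 13, 7 and 6, and 4 and 1 for the 4 lists, beside 24.5% of all probe sets called. Of the 13 lower target probe sets there, 6 are of the ferritin light chain gene Ftl1 and 2 of the heavy chain gene Fth1, whose probe sets may share signal.

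The 10 genes did not vary as a block. Across all animals, with the mean of each strain and label-number set removed, the median Pearson correlation of their 45 pairs was 0.087. Of the pairs, 28 of 45 were above 0. Against all probe sets with exactly 1 symbol the median for the 10 genes was 0.036. The animals share strain and array processing, and these are descriptions. The highest pairs were Nfe2l2 with Gclm (r = 0.57) and Nqo1 with Gclc (r = 0.44), and the lowest was Nfe2l2 with Srxn1 (r = -0.30). Among the probe sets with exactly 1 symbol the closest gene was Samd9l for Nfe2l2 (r = 0.79) and Tcaim for Keap1 (0.64). It was Ciao2a for Nqo1 (0.62) and Cyp4a1 for Hmox1 (0.41). For the glutathione genes it was Slc25a51 for Gclc (0.57), Nkap for Gclm (0.74), Omd for Slc7a11 (0.59) and Ash2l for Gsr (0.61). For the redox enzymes it was Rbm17 for Txnrd1 (0.57) and Hif3a for Srxn1 (0.47). Marker lists of other tissue moved with some of the genes on the same measure: Slc7a11 correlated with the mean of the meninges markers at r = 0.52, and Nfe2l2 with that of the blood vessel markers at r = 0.52.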

How the data were processed

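Per the submitters' processing notes, the authors used RMA and Partek, with versions, order of steps and probe-set library not given in the sources used here. The deposited values are log2 intensities per probe set. RMA includes a quantile step meant to even out differences between whole arrays. The deposited array medians still ran from 7.36 to 7.57, and a further quantile normalization changed some results.

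Groups came from the sample labels. Probe sets were named by the platform's annotation. Lead, dose, window and sex contrasts came from limma (version 3.58.1, R version 4.3.3), 1 fit per strain of 10 group means with no block. Strain contrasts used 1 fit of 30 groups. P-values are two-sided, adjusted by Benjamini-Hochberg over 29214 probe sets in each contrast, and called under 0.05. The fits were tested on simulated data. A marker mean is the mean log2 level of a list's probe sets. All 10 genes were tested in every contrast, but the text does not name each gene for each contrast. In the wider lists, probe sets called in a lead effect and the 3 smallest p-values were eligible, and the strain examples were chosen after their values were seen. The genes and lists were chosen with earlier results of these data known. Window contrasts between strains, window means per strain and the exposed animals as a second strain comparison were added after the values were seen.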

Additional observations from a re-analysis of the deposited data

Results flagged for a closer look

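In 290 groups of 4 animals, taken gene by gene, 16 single animals lay far from the other 3 of their group by Dixon's test, which chance alone gives in about 1 group of 20. Nfe2l2 was low in Sprague Dawley male perinatal 750 ppm replicate 4 (8.88, the others from 9.26 to 9.32), 1 of the arrays that went against their sex label. Keap1 was high in Long Evans female perinatal 750 ppm replicate 3 (9.58) and Nqo1 low in Fischer female postnatal 750 ppm replicate 1 (7.36, the others from 7.93 to 8.04). Hmox1 was low in Fischer male control replicate 3 (6.31) and Fischer male postnatal 250 ppm replicate 4 (6.33), and high in Sprague Dawley female control replicate 2 (6.77), another array against its sex label.

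Gclc was low in Long Evans male control replicate 3 (9.61) and Long Evans male postnatal 750 ppm replicate 1 (9.66), and high in Sprague Dawley female perinatal 750 ppm replicate 4 (10.02). Txnrd1 had 5: low in Fischer male perinatal 250 ppm replicate 1 (7.90), Fischer female control replicate 4 (7.90), Fischer female postnatal 250 ppm replicate 2 (7.99) and Sprague Dawley female perinatal 750 ppm replicate 3 (7.86), and high in Sprague Dawley male postnatal 250 ppm replicate 3 (8.15). Gsr was high in Long Evans female perinatal 250 ppm replicate 2 (9.48) and low in Sprague Dawley male postnatal 250 ppm replicate 1 (9.22). Srxn1, Slc7a11 and Gclm had none.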

How the results depend on the processing

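The count of dose, window and sex differences called, 1 of 90, became 0 with 1 fit of all strains, after a further quantile normalization and with the choroid plexus mean as a covariate, and lay between 0 and 1 without single animals. The 9 strain differences among controls became 17 with exposed animals in their place, and 7 to 10 without single animals; the label-number differences were 9 to 11. No call of the 24 lead contrasts or the mean lead effects per strain appeared under any of these settings. A set of single results, mostly called ones, was followed through the settings, and none of these changed direction. Some mean lead effects near 0 did change sign. Without the arrays against their sex label, that of Slc7a11 in Sprague Dawley rats was 0.0007 and that of Gsr -0.0088. Counting each followed result once per setting, 142 such checks kept direction and side of the threshold, 11 lost the call and 1 gained it. The losses were those of Srxn1 between Fischer label-number sets, between Long Evans windows and between Long Evans and Fischer controls. Gsr and Nfe2l2 between Long Evans and Fischer controls and Gclc between Long Evans and Sprague Dawley controls also lost it. No paired analysis was possible because the replicate numbers were given in accession order and pair no animals; the label-number set stood as a block instead, which changed no lead call. With 4 animals a group, the number of arrays limits all single contrasts, and no background level was measured here. Whether labels or animals were exchanged on the 8 arrays against their sex label was not tested.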

Other observations

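Keap1 held 4 animals apart, noticed after the values were seen. Sprague Dawley female perinatal 750 ppm replicate 4 read 8.74, male perinatal 750 ppm replicates 1 and 3 read 8.82 and 8.88, and female postnatal 750 ppm replicate 4 read 8.89. The other 35 Sprague Dawley animals lay between 9.19 and 9.52. All 4 are labelled 750 ppm, and the only postnatal 1 of them is an array that went against its sex label, while the mean difference between doses in this strain, -0.12 from 250 to 750 ppm, was not called (limma adjusted p 1). In the same 4 animals Gclc read 10.02, 10.06, 10.07 and 10.14, above the highest Sprague Dawley control (9.99), as were 5 other exposed Sprague Dawley animals, 9 in all, whereas Gclm read 9.25, 9.84, 9.56 and 9.36. The labels do not say whether these animals shared a litter.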
